A study of Mus musculus with 6 samples.

Results

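Fibroblast growth factor (FGF) signalling genes were examined in sorted bone-forming cells of mouse pups, for 10 genes that comprised 3 receptors (Fgfr1, Fgfr2 and Fgfr3), 5 ligands found in the skeleton (Fgf2, Fgf7, Fgf9, Fgf18 and Fgf23) and 2 feedback genes (Spry2 and Dusp6). They were taken by symbol from a table of 27179 gene IDs, and all 10 matched an ID. The knockout group was 3 libraries labelled Cdc73/Hrpt2 KO and titled Flox, and the control group was 3 libraries labelled Wildtype. All came from calvaria of C57Bl/6J pups aged 5 days, and cells of either genotype were sorted by the GFP transgene that Osteocalcin-Cre controls, a driver of mature osteoblasts. The product of Cdc73 (Hrpt2) is parafibromin, part of the Paf1 complex, which accompanies elongating RNA polymerase II. The labels do not say whether a library was 1 pup, a litter or a pool, so p-values measure the spread between these libraries, which may be partly technical.

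FGFs are secreted proteins that bind receptor tyrosine kinases together with heparan sulphate. The activated receptor recruits the adaptor Frs2 and switches on the Ras-ERK kinase cascade, which in turn induces its own inhibitors, among them Sprouty proteins and ERK phosphatases. In the skull vault, this pathway sets the balance between growth of suture progenitors and their maturation into osteoblasts, and activating receptor mutations fuse the sutures early. FGF23 stands apart as a hormone made by osteoblasts and osteocytes, which acts on the kidney to lower blood phosphate.

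The libraries held 13591925 to 20993962 counts. Cdc73 measured 14.0, 14.7 and 14.4 CPM (counts scaled to a fixed library total with TMM factors, which even out library composition) in knockout 1, 2 and 3, and 20.5, 12.8 and 21.7 CPM in wildtype 1, 2 and 3. Wildtype 2 lay below every knockout library, and the difference did not pass the test (adjusted p = 0.428), so the genotypes here are those of the labels and this gene did not check each one; the labels do not give the deleted part. The osteoblast label held for both groups, with 13 of 13 osteoblast markers detected and summed levels of 237433 to 351460 CPM in knockout and 281747 to 307696 CPM in wildtype libraries. Of these 13 markers 11 had a negative fold change (median log2 fold change -0.36). In edgeR's quasi-likelihood test 3 (23.1%) were lower at an unadjusted p under 0.05, against 6.35% of all genes tested. Chondrocyte markers were higher in the knockout libraries, summing to 26872, 15759 and 11896 CPM in knockout 1, 2 and 3 and to 10165, 4079 and 3563 CPM in wildtype 1, 2 and 3. All 13 had a positive fold change (median log2 fold change 2.15), against 49.3% of all genes, and none of the 13 was at 0. Endothelial markers (12 of 12 positive, median 1.29) ranged from 200 to 301 CPM summed in knockout and from 101 to 196 CPM in wildtype, and macrophage and monocyte markers (12 of 12 positive, median 1.19) from 146 to 345 and from 89.3 to 123 CPM, again with none at 0. In the same test 13 of 13 chondrocyte and 8 of 12 endothelial markers were higher at an unadjusted p under 0.05. So were 11 of 12 macrophage and monocyte markers, against 8.26% of all genes, and 0 of these markers passed after adjustment. Of 4 keratinocyte markers, all had a mean under 1 CPM. Fewer cells of a type and less RNA per cell cannot be told apart in such bulk samples.

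None of the FGF genes passed the test between genotypes. Genes were tested with edgeR's quasi-likelihood test across 13505 genes, with Benjamini-Hochberg adjustment and a threshold of 0.05, and 0 genes (0%) passed in the whole table. Of the 10 FGF genes, 8 had enough counts to be tested. Fgf9 and Fgf23 were below the filter. At an unadjusted p under 0.05, 1 of the 8 was higher in knockout (Fgf18) and 0 were lower, where 8.26% and 6.35% of all genes were. In TMM-scaled CPM, the lowest knockout library exceeded the highest wildtype library in 2 of the 8 (Fgf18 and Dusp6), against 10.6% of all genes. The opposite was shown by 0, against 9.81%. Positive fold changes were found for 6 of the 8, against 49.3% of all genes, and the median log2 fold change was 0.24 against -0.01 over all genes. When libraries were scaled by their size only, the all-gene median became -0.21, and of the 8 FGF genes 5 were then positive, with a median of 0.06. With 8 genes, these counts describe the set and do not set it apart from the rest of the table.

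**Figure D1:**
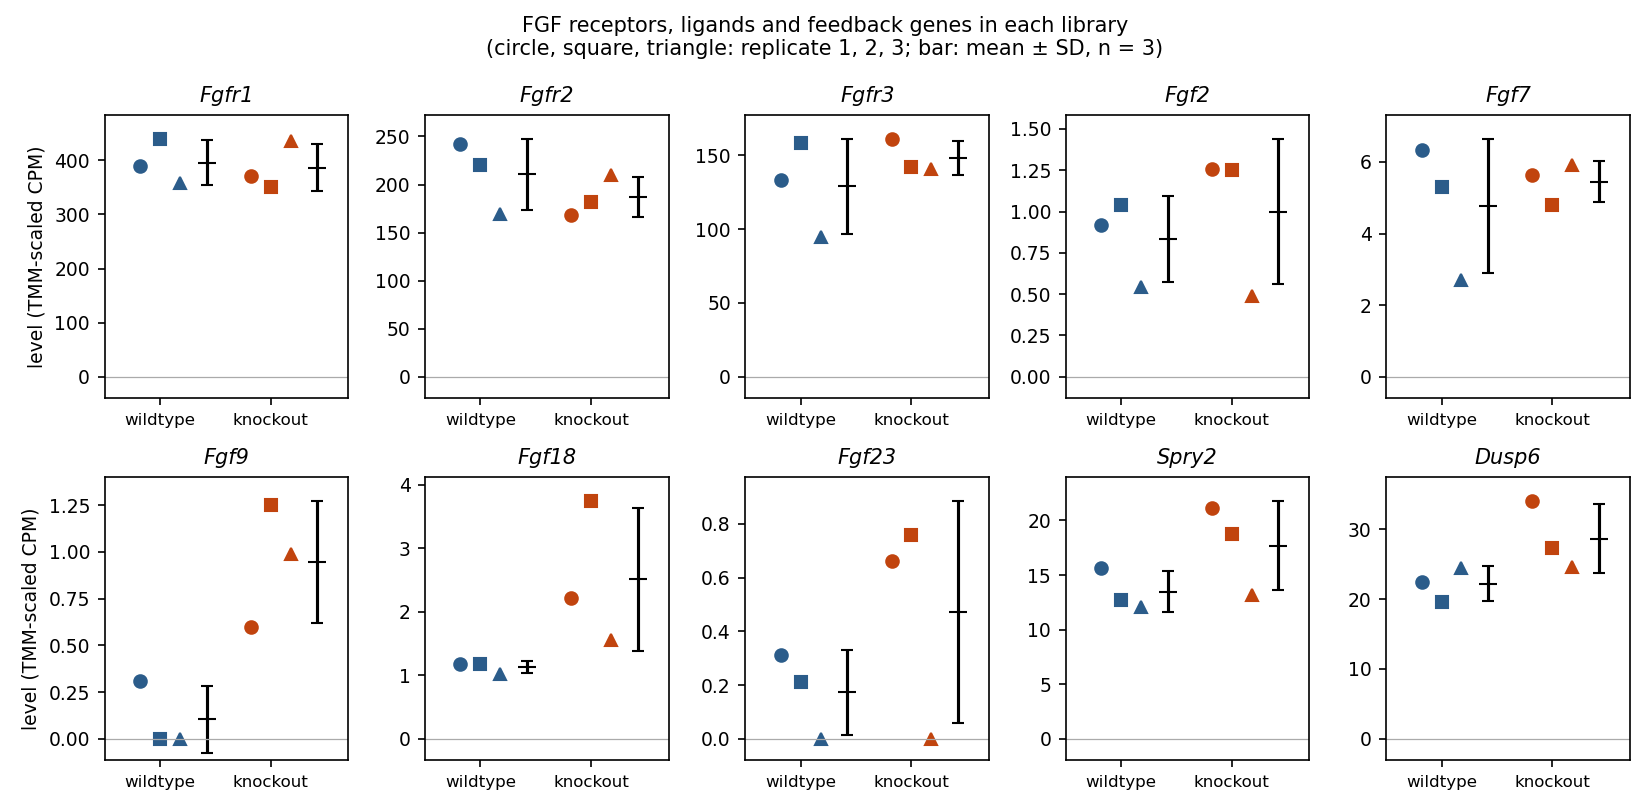
Level of each of the 10 FGF genes in each library, in TMM-scaled CPM on the vertical axis, with wildtype in blue and knockout in red. Circles, squares and triangles are replicates 1, 2 and 3, and the bar beside each group is the mean ± SD (n = 3). The 3 receptors overlap between the groups, whereas Fgf9, Fgf18 and Dusp6 lie higher in every knockout library. The closest values are 24.52 against 24.48 CPM for Dusp6, and 10 against 7 counts for Fgf9, which the filter on low counts removed.

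The 3 receptors were the most abundant of the FGF genes and overlapped between genotypes. Fgfr1 (gene ID 14182, chromosome 8, 25518759 to 25575718 in mm10), the main receptor of maturing osteoblasts, measured 371, 352 and 435 CPM in knockout 1, 2 and 3 and 389, 440.2 and 358 CPM in wildtype 1, 2 and 3. The ranges of the groups coincided almost fully. Mean levels were 386 ± 43.5 CPM in knockout and 396 ± 41.3 CPM in wildtype (SD, n = 3 each). The log2 fold change was -0.04 ± 0.17 (standard error; 95% interval -0.42 to 0.35, adjusted p = 0.930). The direction of this small difference was not stable, turning to 0.03 both without knockout 2 and without wildtype 2, while it was -0.25 with library size alone.

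Fgfr2 (gene ID 14183, chromosome 7, 130162451 to 130266808), the receptor whose activating mutations cause several craniosynostosis syndromes, measured 169, 182 and 209.95 CPM in knockout 1, 2 and 3. In wildtype 1, 2 and 3 it measured 242, 221 and 169 CPM. Wildtype 1 and 2 were above all knockout libraries, but wildtype 3 was level with the lowest of them. Knockout averaged 187 ± 21.1 CPM and wildtype 211 ± 37.2 CPM (SD, n = 3 each), and the log2 fold change was -0.17 ± 0.19 (95% interval -0.59 to 0.24, adjusted p = 0.639).

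Fgfr3 (gene ID 14184, chromosome 5, 33721724 to 33737068), the receptor that restrains proliferation of growth plate chondrocytes and is also found in osteoblasts, measured 161, 142 and 141 CPM in knockout 1, 2 and 3. In wildtype 1, 2 and 3 it measured 134, 159 and 95.00 CPM. Only wildtype 3 was clearly low, and wildtype 2 exceeded both knockout 2 and knockout 3. Knockout averaged 148 ± 11.6 CPM and wildtype 129 ± 32.1 CPM (SD, n = 3 each), and the log2 fold change was 0.20 ± 0.20 (95% interval -0.26 to 0.65, adjusted p = 0.621). Without wildtype 3 the value was 0.01, and with library size alone as the scaling it was 0.00. Fgfr3 and the summed chondrocyte markers were both highest in knockout 1 (161 and 26872 CPM) and lowest in wildtype 3 (95.00 and 3563 CPM), while wildtype 2 had more Fgfr3 than wildtype 1 and fewer chondrocyte markers. The part of chondrocyte RNA was not tested. Some Fgfr3 exon bases (13.3%) also belong to the opposite-strand model G630022F23Rik, and 1.7% of those of Fgfr1 to Gm16159, and reads there cannot be told apart without strand.

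Per length, Fgfr1 was the highest of the receptors in every library. Dividing CPM by the merged exon length in kilobases gave 36.4 to 45.6 CPM per kb for Fgfr1, 16.8 to 24.1 for Fgfr2 and 13.4 to 22.7 for Fgfr3 over the 6 libraries. The last pair overlapped and their order changed: Fgfr3 was above Fgfr2 in knockout 1 (22.7 against 16.8), knockout 2 (20.01 against 18.2) and wildtype 2 (22.3 against 22.0). It was below Fgfr2 in the other libraries. In CPM, Fgfr2 was above Fgfr3 in every library. The change of order thus rests on the merged exon lengths, 10014 bases for Fgfr2 and 7108 for Fgfr3, which need not be those of the transcripts present. As a share of the per-length level of the 3 receptors, which does not depend on library scaling, Fgfr1 made up 50.2% ± 2.01 in knockout and 51.4% ± 3.39 in wildtype (SD, n = 3 each). Fgfr2 made up 23.5% ± 1.64 and 26.2% ± 2.45, with every knockout library (21.6%, 24.39% and 24.45%) below every wildtype library (29.0%, 24.5% and 25.1%), the closest pair being almost level. Fgfr3 made up 26.3% ± 3.07 and 22.4% ± 2.51, with the 3 knockout libraries at 29.1%, 26.8% and 23.1%, and the wildtype libraries, in the same order, at 22.6%, 24.8% and 19.8%. The difference for Fgfr3 was 3.92 percentage points, with an exact permutation p = 0.2 (two-sided). The exact p was 0.1 for Fgfr2, the smallest that 3 against 3 libraries can give, and 0.7 for Fgfr1, and adjusted over the 3 receptors the exact p-values were 0.3, 0.3 and 0.7 for Fgfr2, Fgfr3 and Fgfr1.

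**Figure D2:**
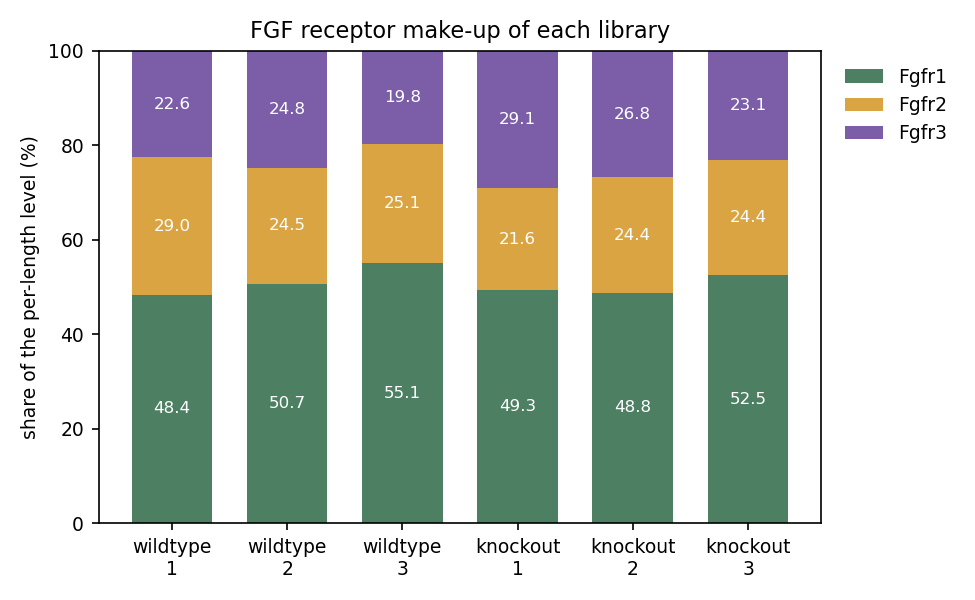
Share of Fgfr1, Fgfr2 and Fgfr3 in their summed per-length level (vertical axis, percent) for each of the 6 libraries. Fgfr1 takes 48.4% to 55.1% in every library, and the Fgfr3 share is 23.1% to 29.1% in the knockout and 19.8% to 24.8% in the wildtype libraries.

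The other receptor genes were read from a list of the wider pathway. Fgfrl1, a receptor-like protein that binds FGFs but lacks the kinase domain, measured 41.9, 35.3 and 30.7 CPM in knockout 1, 2 and 3 and 27.8, 25.1 and 16.7 CPM in wildtype 1, 2 and 3. On this TMM scale every knockout library was above every wildtype library (log2 fold change 0.63 ± 0.22), yet the test was not passed (adjusted p = 0.291). With library size alone the log2 fold change was 0.44. Fgfrl1 ranked the 6 libraries in the same order as the summed chondrocyte markers, from 26872 CPM in knockout 1 to 3563 CPM in wildtype 3. The summed endothelial markers gave the same order (301 to 101 CPM), and the part of those cells was not tested. The macrophage and monocyte sums did not, with wildtype 2 above wildtype 1 (123 and 115 CPM). The share of all genes that follow this order was not counted. Fgfr4 was scarce and scattered, at 1.32 to 4.02 CPM in knockout and 1.13 to 4.24 CPM in wildtype libraries (0.25 ± 0.56, adjusted p = 0.837).

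The ligands were far less abundant than the receptors, and Fgf18 had the largest difference of the 3 ligands that passed the filter on low counts. Fgf18 (gene ID 14172, chromosome 11, 33116970 to 33147400), which promotes osteoblast formation in the calvaria and signals to chondrocytes through Fgfr3, had 37, 54 and 19 counts in knockout 1, 2 and 3 and 27, 17 and 17 counts in wildtype 1, 2 and 3. In CPM these were 2.22, 3.75 and 1.56 against 1.18, 1.18 and 1.02. On this TMM scale the groups did not overlap, with all knockout libraries higher. The spread lay in the knockout group, where knockout 2 was highest. Knockout averaged 2.51 ± 1.12 CPM and wildtype 1.13 ± 0.0960 CPM (SD, n = 3 each). The log2 fold change was 1.15 ± 0.46 (95% interval 0.12 to 2.19), a 2.23-fold difference. The unadjusted p in edgeR's quasi-likelihood test was 0.0325 and the adjusted p = 0.320. Without knockout 2 the log2 fold change was 0.75 (adjusted p = 0.829). With library size alone it was 0.98, and the unadjusted p in the same test was 0.0842. Fgf18 was highest in knockout 2, while the chondrocyte markers were highest in knockout 1, and the part of other cell types in the difference was not tested.

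Fgf9 (gene ID 14180, chromosome 14, 58070671 to 58112854), a ligand of cartilage and perichondrium that also acts on bone vascularisation, was close to the detection limit. It had 10, 18 and 12 counts in knockout 1, 2 and 3 and 7, 0 and 0 counts in wildtype 1, 2 and 3. The empty libraries allow up to 0.209 CPM in wildtype 2 and 0.179 CPM in wildtype 3 (3 counts, counting error only), against 0.31 CPM in wildtype 1 and 0.60, 1.25 and 0.99 CPM in knockout 1, 2 and 3. Every knockout library was thus above every wildtype library. At the closest these were 10 counts in knockout 1 and 7 in wildtype 1, few enough for counting error to matter. The filter on low counts removed the gene, and in a fit without that filter, in which 24 of 19771 genes (0.121%) passed, it did not pass (log2 fold change 2.92 ± 1.09, unadjusted p = 0.0151, adjusted p = 0.269 in edgeR's quasi-likelihood test). Fgf18 in that fit was at 1.14 ± 0.50. The wildtype libraries with no Fgf9 count were also those with the lowest chondrocyte marker sums (4079 and 3563 CPM). Among the knockout libraries, knockout 1 had the highest sum (26872 CPM) and the lowest Fgf9 level (0.60 CPM). The part of chondrocyte RNA was not tested.

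Fgf7 (gene ID 14178, chromosome 2, 126034658 to 126091185), also known as keratinocyte growth factor, is made by mesenchymal cells and acts on epithelia through a splice form of Fgfr2. It measured 5.64, 4.80 and 5.92 CPM in knockout 1, 2 and 3 and 6.34, 5.29 and 2.69 CPM in wildtype 1, 2 and 3, overlapping groups in which only wildtype 3 stood low. The log2 fold change was 0.19 ± 0.33 (95% interval -0.55 to 0.93, adjusted p = 0.789), -0.11 without wildtype 3 and -0.02 with library size alone. Fgf2 (gene ID 14173, chromosome 3, 37348477 to 37410106), a matrix-bound FGF that is mitogenic for osteoprogenitors, had 21, 18 and 6 counts in knockout 1, 2 and 3 and 21, 15 and 9 counts in wildtype 1, 2 and 3. Replicate 3 was the lowest of each group, and the groups overlapped. The log2 fold change was 0.28 ± 0.58 (95% interval -1.03 to 1.59, adjusted p = 0.827). Of the Fgf2 exon bases 9.63% are shared with the antisense gene Nudt6 and 3.84% with Gm43439, so some of these few reads may belong to either.

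Fgf23 (gene ID 64654, chromosome 6, 127072902 to 127082296) had 11, 11 and 0 counts in knockout 1, 2 and 3 and 7, 3 and 0 counts in wildtype 1, 2 and 3. Knockout 3 and wildtype 3 were thus empty, which allows up to 0.247 and 0.179 CPM, and the other libraries ranged from 0.21 to 0.76 CPM. The groups overlapped, the gene was below the filter, and without the filter its log2 fold change was 1.40 ± 1.24 (adjusted p = 0.626). Its coreceptor Klotho (Kl), which was named after its values were seen, had 5, 7 and 2 counts in knockout and 3, 0 and 0 counts in wildtype libraries. On average Kl was scarcer than Fgf23 (0.180 against 0.323 CPM over the 6 libraries). Of 5 listed genes that control FGF23 output, all were tested, 3 had a positive and 2 a negative fold change, and 0 passed. Dmp1, a matrix protein of osteocytes whose loss raises FGF23, was higher in every knockout library. It measured 288, 258 and 315 CPM against 223, 195 and 224.5 CPM (log2 fold change 0.42 ± 0.16, adjusted p = 0.312). Fam20c, the kinase that phosphorylates FGF23 (0.20 ± 0.21, adjusted p = 0.628, and -0.02 with library size alone), and Enpp1, the enzyme that makes pyrophosphate (0.28 ± 0.25, adjusted p = 0.575), overlapped between the groups. So did the negative pair, Phex, a membrane peptidase whose loss raises FGF23 (-0.20 ± 0.24, adjusted p = 0.673), and Galnt3, which glycosylates FGF23 (-0.06 ± 0.26, adjusted p = 0.929), both named after their values were seen.

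On the per-length scale, the order of the ligands was Fgf7, Fgf18, Fgf2, Fgf23 and Fgf9 in the wildtype group, where they averaged 1.47 ± 0.579, 0.949 ± 0.0809, 0.125 ± 0.0396, 0.0946 ± 0.0862 and 0.0224 ± 0.0388 CPM per kb (SD, n = 3). In the knockout group it was Fgf18, Fgf7, Fgf23, Fgf9 and Fgf2, with 2.12 ± 0.947, 1.68 ± 0.181, 0.262 ± 0.228, 0.208 ± 0.0720 and 0.151 ± 0.0662 CPM per kb. Fgf18 and Fgf7 overlapped within each group, and the gap between this pair and the rest exceeded the spread. In CPM, Fgf7 was above Fgf18 in every library. Fgf18 thus led in knockout only after division by the merged exon lengths, 1187 bases for Fgf18 and 3248 for Fgf7. The 3 scarcer ligands overlapped in knockout libraries, and in wildtype libraries Fgf2 stood above Fgf9 but overlapped Fgf23. Of 13 other secreted ligands, 11 were below the filter, and 4 of these had no count in any library, which allows up to 0.131 to 0.247 CPM per library. The tested pair, Fgf1 (0.01 ± 0.48, adjusted p = 0.997) and Fgf21 (-0.12 ± 0.55, adjusted p = 0.930), overlapped between genotypes.

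Beyond the receptors and ligands, the largest positive estimates among the 8 tested FGF genes after Fgf18 were those of the feedback pair, Spry2 and Dusp6. The promoters of these 3 genes are shown because theirs were the 3 largest estimates. RefSeq (GRCm38.p6) held a promoter for 9 of the 10 FGF genes, and the 250 bases just upstream of the transcript start are printed 5′ to 3′ on the gene's strand. They span chr11:33147401-33147650 (minus strand, Fgf18), chr14:105896820-105897069 (minus strand, Spry2) and chr10:99262981-99263230 (plus strand, Dusp6). Capitals mark GGAA, or TTCC on the other strand, the core bound by ETS factors such as the ERK-responsive Etv4 and Etv5.
Fgf18: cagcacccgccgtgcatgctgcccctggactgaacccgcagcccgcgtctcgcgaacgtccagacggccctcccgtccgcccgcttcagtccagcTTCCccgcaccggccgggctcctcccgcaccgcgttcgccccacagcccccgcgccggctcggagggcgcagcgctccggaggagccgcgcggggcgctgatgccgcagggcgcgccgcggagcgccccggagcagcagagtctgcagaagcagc
Spry2: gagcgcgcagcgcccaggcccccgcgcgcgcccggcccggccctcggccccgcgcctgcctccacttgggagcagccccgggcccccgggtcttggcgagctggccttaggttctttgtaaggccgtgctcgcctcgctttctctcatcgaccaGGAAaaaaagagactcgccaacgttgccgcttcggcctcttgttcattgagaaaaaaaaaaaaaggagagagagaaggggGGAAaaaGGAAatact
Dusp6: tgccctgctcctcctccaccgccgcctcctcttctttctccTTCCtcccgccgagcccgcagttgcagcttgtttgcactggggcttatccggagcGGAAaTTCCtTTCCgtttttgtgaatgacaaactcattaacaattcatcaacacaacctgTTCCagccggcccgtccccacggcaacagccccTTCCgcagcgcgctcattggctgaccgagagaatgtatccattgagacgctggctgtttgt
GGAA occurred once in either orientation upstream of Fgf18, 3 times upstream of Spry2 and 6 times upstream of Dusp6, where neighbouring matches nearly touch. The motif is short, and 93.4% of 32851 upstream windows of this length held it, with a median of 3 matches. CCAAT on either strand was found in the Dusp6 window only, as in 33.8% of windows, and TATAAA in none of the 3, as against 12.4% of windows. CG dinucleotides numbered 37 upstream of Fgf18, 23 of Spry2 and 16 of Dusp6, against a median of 6, and 2.2%, 13.3% and 25.4% of windows held as many. These matches describe the letters only.

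Spry2 (gene ID 24064, chromosome 14, 105891947 to 105896819) encodes a Sprouty protein that blocks receptor signalling upstream of Ras. It measured 21.2, 18.8 and 13.2 CPM in knockout 1, 2 and 3 and 15.6, 12.7 and 12.1 CPM in wildtype 1, 2 and 3. Knockout 1 and 2 were above all wildtype libraries, and knockout 3 was below wildtype 1. Averages were 17.7 ± 4.11 and 13.5 ± 1.88 CPM in the 2 groups (SD, n = 3 each). The log2 fold change was 0.40 ± 0.22 (95% interval -0.09 to 0.88, adjusted p = 0.394). Without knockout 1 the value was 0.24, and with library size alone 0.21.

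Dusp6 (gene ID 67603, chromosome 10, 99263231 to 99267489) encodes a cytoplasmic phosphatase that inactivates ERK and is a widely used readout of FGF signalling. It measured 34.1, 27.4 and 24.52 CPM in knockout 1, 2 and 3 and 22.5, 19.5 and 24.48 CPM in wildtype 1, 2 and 3. All knockout values were above all wildtype values, though knockout 3 and wildtype 3 were practically level. Knockout averaged 28.7 ± 4.91 CPM and wildtype 22.2 ± 2.49 CPM (SD, n = 3 each), a 1.29-fold difference (log2 fold change 0.37 ± 0.18, 95% interval -0.03 to 0.77, adjusted p = 0.363). Without knockout 1 it was 0.22, and with library size alone 0.18. Knockout 1 was the highest library for Spry2 and Dusp6 as well as for the summed chondrocyte, endothelial and macrophage markers (26872, 301 and 345 CPM). Wildtype 3 had the lowest sums of these markers (3563, 101 and 89.3 CPM) and the lowest Spry2. Its Dusp6 was nevertheless the highest of the wildtype libraries (24.48 CPM). The part of those cells in these differences was not tested.

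Further feedback inhibitors stood on the wider list. Of 10 listed, 9 were tested and 8 had a positive fold change, against 49.3% of all genes. The median log2 fold change was 0.34, against -0.01 over all genes. At an unadjusted p under 0.05, 3 of the 9 were higher and 1 lower, where 8.26% and 6.35% of all genes were, and 0 passed after adjustment. With library size alone 5 of the 9 were positive, and their median was 0.14 against -0.21 over all genes. Dusp5, a nuclear ERK phosphatase, measured 25.9, 20.4 and 19.3 CPM in knockout 1, 2 and 3 and 12.1, 11.2 and 10.6 CPM in wildtype 1, 2 and 3. All knockout values were well above all wildtype values, at 21.8 ± 3.52 and 11.3 ± 0.752 CPM (SD, n = 3 each). The log2 fold change was 0.95 ± 0.18 (adjusted p = 0.273). DESeq2, which called 1.84% of genes, passed Dusp5 (adjusted p = 0.00410), and so did edgeR without wildtype 1, which called 2.96% (adjusted p = 0.0444). Over all 17 alternatives the adjusted p ranged from 0.00410 to 0.944 and the log2 fold change from 0.76 to 1.02.

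Dusp4, another nuclear MAP kinase phosphatase, measured 9.30, 6.12 and 3.29 CPM in knockout 1, 2 and 3 against 2.93, 2.64 and 1.91 CPM in wildtype 1, 2 and 3. The knockout libraries were again all higher, by little in knockout 3 (log2 fold change 1.32 ± 0.39, adjusted p = 0.277). In TMM-scaled CPM, Dusp5 and Dusp4 ranked the 6 libraries in the same order as the summed chondrocyte markers (26872, 15759 and 11896 CPM in knockout and 10165, 4079 and 3563 CPM in wildtype libraries) and the summed endothelial markers did. The macrophage and monocyte sums ranked wildtype 2 above wildtype 1 (123 and 115 CPM). The share of all genes that follow the chondrocyte order was not counted, and the part of those cells was not tested. Spred1, a Sprouty-related inhibitor of Ras activation that was singled out after its values were seen, measured 44.5, 47.2 and 44.6 CPM against 41.4, 33.7 and 25.3 CPM (0.44 ± 0.19, adjusted p = 0.335). Spry1 went the other way in every library, at 11.1, 12.9 and 13.4 CPM in knockout 1, 2 and 3 and 16.5, 16.3 and 16.8 CPM in wildtype 1, 2 and 3. The wildtype values were tightly grouped and all higher (-0.41 ± 0.17, adjusted p = 0.322). The estimates of Spry2 (0.40 ± 0.22) and Spry1 (-0.41 ± 0.17) kept opposite signs under each scaling tried, though neither passed and their difference was not tested. Spry4, which was named after its values were seen, overlapped between the groups (0.17 ± 0.19, adjusted p = 0.640).

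**Figure D3:**
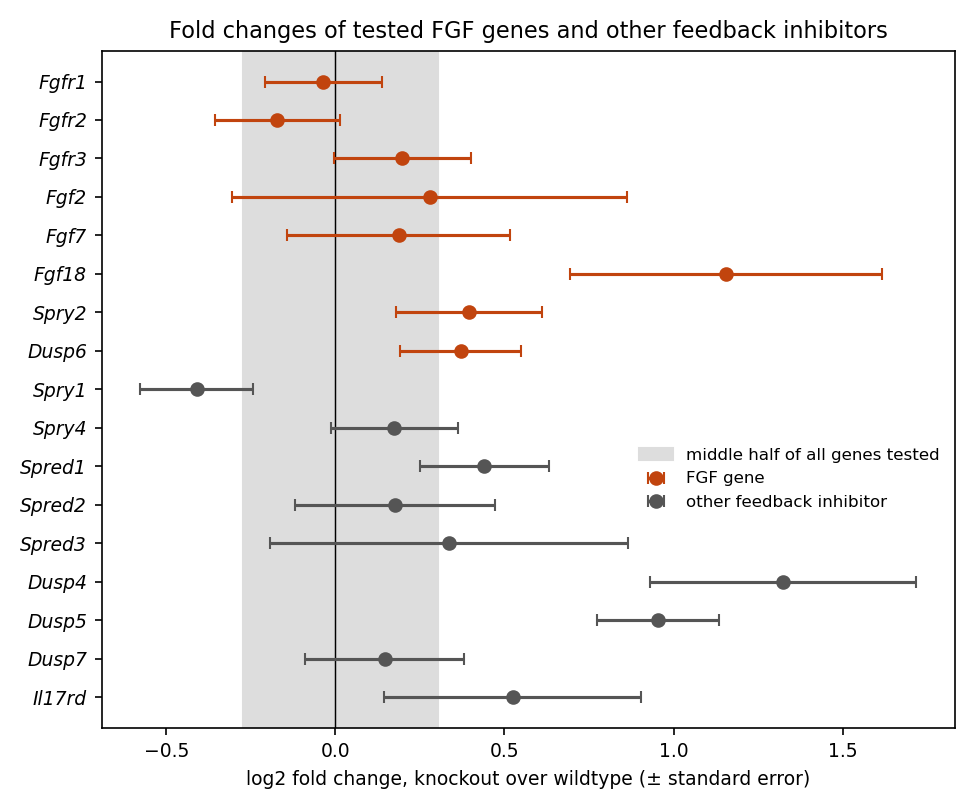
Log2 fold change of knockout over wildtype (horizontal axis, ± standard error) for the 8 tested FGF genes (red) and 9 other feedback inhibitors (grey points). The grey band spans the interquartile range of all 13505 genes, -0.27 to 0.30. The receptors lie within it, and Fgf18 (1.15), Dusp4 (1.32) and Dusp5 (0.95) lie farthest to the right.

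Transcription factors of the ETS family that respond to ERK overlapped between the genotypes. Etv5 measured 21.7, 24.6 and 23.2 CPM in knockout 1, 2 and 3 and 23.6, 19.1 and 21.5 CPM in wildtype 1, 2 and 3 (log2 fold change 0.11 ± 0.16, adjusted p = 0.731, and -0.09 with library size alone). Etv4 (-0.46 ± 0.37, adjusted p = 0.537) and Etv1 (-0.04 ± 0.43, adjusted p = 0.969) were scarcer and overlapped between the groups. A difference between these genes and the phosphatases was not tested.

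Over the whole wider list of 76 pathway genes, 60 were tested and 0 passed. At an unadjusted p under 0.05, 9 (15%) were higher and 1 (1.7%) lower, beside 8.26% and 6.35% of all genes, and with library size alone 3 of the 60 were higher and 8 lower, beside 3.52% and 18.4% of all genes under that scaling. The groups did not overlap for 12 of the 60, of which 9 (15%) had knockout above, against 10.6% of all genes, and 3 had knockout below, against 9.81%. The list's median was 0.11 on the log2 scale, against -0.01 over all genes, and with library size alone -0.09 against -0.21. The list of adaptors and kinases of the Ras-ERK cascade was centred near 0, with 11 of 19 positive and a median of 0.04. Its genes of smallest p were Cbl, a ubiquitin ligase that tags activated receptors (0.61 ± 0.20, adjusted p = 0.285), Braf (0.44 ± 0.20, adjusted p = 0.350) and the adaptor Frs3 (-0.69 ± 0.35, adjusted p = 0.373).

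Among 17 coreceptors and ligand carriers, 14 were tested, 7 with a positive and 7 with a negative fold change. Syndecan 4 (Sdc4), a heparan sulphate proteoglycan of the cell surface, measured 179.6, 165 and 145 CPM in knockout 1, 2 and 3 and 108, 85.9 and 58.0 CPM in wildtype 1, 2 and 3. The groups were well apart, with a log2 fold change of 0.96 ± 0.23 (adjusted p = 0.273). DESeq2 (adjusted p = 0.00623) and edgeR without wildtype 1 (adjusted p = 0.0397) passed it, and over all 17 alternatives the adjusted p reached 0.944. Ext1, which polymerises heparan sulphate chains, was higher in every knockout library on the TMM scale (77.5 ± 2.77 against 57.0 ± 4.44 CPM, SD, n = 3 each, 0.44 ± 0.14, adjusted p = 0.284). With library size alone its log2 fold change was 0.24. Fgfbp3, a carrier that releases FGFs from the matrix, was lower in every one (1.08 ± 0.456 against 1.91 ± 0.0338 CPM, SD, n = 3 each, -0.82 ± 0.47, adjusted p = 0.408). Sdc4 is also known from chondrocytes and endothelial cells, whose summed markers ranked the 6 libraries in the same order as Sdc4. The share of all genes that follow this order was not counted, and the part of those cells was not tested.

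The remaining groups were small. The intracellular FGF homologous factors, which do not bind receptors, were negative in 3 of 3 tested, as were 6843 of all 13505 genes. They were Fgf13 (-0.74 ± 0.40, adjusted p = 0.394), Fgf11 (-0.72 ± 0.62, adjusted p = 0.561) and Fgf12 (-0.55 ± 0.69, adjusted p = 0.690). Fgf11 and Fgf12 were scarce, with means of 0.65 and 0.72 CPM over the 6 libraries. For Fgf13 the gap rested on wildtype 2, at 7.23 CPM beside 2.49 and 4.0 CPM in wildtype 1 and 3 and 2.64 to 2.80 CPM in the knockout libraries, and without wildtype 2 it was -0.27. Without wildtype 3, Fgf12 turned to 0.07. Of the membrane partners of FGF receptors, Flrt2 (0.40 ± 0.18, adjusted p = 0.342, and 0.19 with library size alone) was higher in every knockout library on the TMM scale. Flrt3 (-0.31 ± 0.19, adjusted p = 0.423) and Flrt1 (0.25 ± 0.58, adjusted p = 0.840) overlapped.

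**Figure D4:**
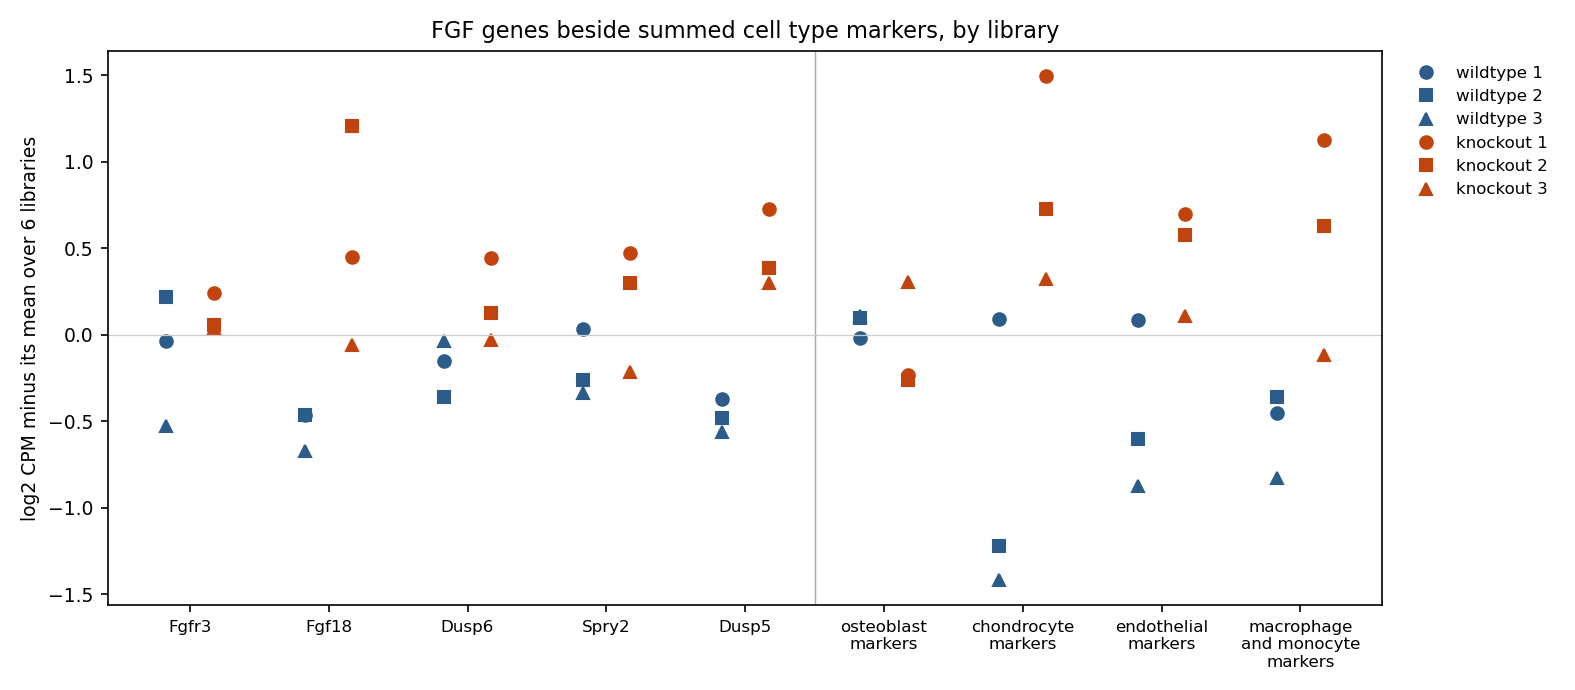
Log2 CPM minus its mean over the 6 libraries (vertical axis) for 5 FGF pathway genes and, right of the line, for the summed CPM of 4 cell type marker lists, by library (blue wildtype, red knockout). Chondrocyte, endothelial and macrophage markers are highest in knockout 1, as are Fgfr3, Dusp6, Spry2 and Dusp5, while Fgf18 is highest in knockout 2. Wildtype 3 is lowest for those markers and for Fgfr3, Spry2, Dusp5 and Fgf18, but is the highest wildtype library for Dusp6.

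The genes whose level moved over the 6 libraries most like each FGF gene were ranked by the root-mean-square difference between centred log2 CPM profiles, among 9618 named genes whose mean reached 5 CPM. For Fgfr1 they were Lrrc1 (0.03), Stt3a (0.04) and Cttn (0.04), for Fgfr2 Daam2 (0.03), Glis2 (0.06) and Dock1 (0.06), and for Fgfr3 Lrrc49, Matn2 and Cspg4 (0.06 each). For Fgf7 they were Atg4c (0.08), Lonp1 (0.08) and Ctif (0.11), for Spry2 Dennd3 (0.08), Mdfic (0.09) and Anxa3 (0.09), and for Dusp6 Wwp2 (0.04), Ndrg2 (0.05) and Zcchc3 (0.07). The median distance of all candidates was 0.28 for Fgfr1 and 0.47 for Fgf7, the lowest and highest of the 6 genes. The root-mean-square spread of the gene's own profile was likewise lowest for Fgfr1 (0.13) and highest for Fgf7 (0.40). Distances of different genes are therefore not directly comparable. The lists are descriptions, since the closest of many candidates were taken over 6 libraries only.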

How the data were processed

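RNA was sequenced from 6 libraries, 3 per group. The authors deposited counts of reads for each gene, as integers that were not normalized, and used CASAVA version 1.7, Subread and featureCounts with mouse genome build mm10, per the submitters' processing notes. Not given in the sources used here were strand setting, annotation and RNA selection. All columns matched a sample (0 left over). Gene names came from RefSeq (25275 IDs) and GENCODE M21 (18), leaving 1886 unnamed IDs, which were kept in all totals and tests.

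Genes were filtered with filterByExpr, scaled with TMM (factors 0.813 to 1.091) and tested with edgeR 4.0.16 (R 4.3.3), two-sided, on all libraries without covariates, with Benjamini-Hochberg adjustment over all 13505 genes. The 95% intervals use the moderated t quantile. Log2 CPM used a prior count of 2. Per-length levels used GENCODE M21 exons merged within the RefSeq span of each gene. DESeq2 1.42.0 and limma 3.58.1 (voom) were alternatives. The fits were tested on simulated data. No pair of libraries was alike within sampling noise (chi-square per degree of freedom 18.3 to 139).

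The FGF genes and all lists were chosen with earlier results of these data known. Genes named were Cdc73, the 10 FGF genes, up to 3 genes of smallest p in each wider list and the 3 most similar profiles per tested FGF gene with a mean of 5 CPM or more. A fit with wildtype 1 as the only control was chosen after seeing the data, and this control is taken to vary as much as the knockouts do. Marker lists of osteocytes, suture mesenchyme, neutrophils, erythroid cells and skeletal muscle had median log2 fold changes of 0.30, 0.16, 1.66, 1.58 and -0.62.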

Additional observations from a re-analysis of the deposited data

How the results depend on the processing

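Of the FGF genes tested (8 to 10, depending on the filter), 0 passed the adjusted threshold in the main analysis or in any of 17 alternatives. In the whole table the adjusted threshold was passed by 0 genes in edgeR (unadjusted p under 0.05 for 1974), 24 without the filter on low counts, and DESeq2 called 248. Leaving out 1 library each gave 0 to 409 calls, the 409 arising without wildtype 1. On the wider pathway list 0 genes passed, 2 with DESeq2, and 0 to 2 when 1 library was left out (2 without wildtype 1), in each case Sdc4 and Dusp5. The replicate number as a block gave 236 calls in the whole table and the same 2 genes on the wider list (adjusted p = 0.0379 for Dusp5 and 0.0310 for Sdc4). The labels give no shared origin for equal numbers, and deviations of same-numbered libraries correlated across genes at 0.115, -0.074 and 0.222, so the numbers were not taken as pairs; knockout 2 went best with wildtype 1 (0.347).

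Of 557 values of 33 named genes under the alternatives, 527 kept their direction and side of the threshold, 6 newly passed and 24 turned sign, all of the last with an adjusted p of at least 0.712. Leaving out 1 library gave -0.15 to 0.0315 for Fgfr1, -0.11 to 0.44 for Fgf7, -0.29 to 0.30 for Etv1, -0.39 to 0.17 for Fgf1, -0.96 to 0.0681 for Fgf12, -0.38 to 0.10 for Fgf21, -0.10 to 0.87 for Fgfr4 and -0.27 to 0.49 for Flrt1. With library size alone Fgf7 was -0.0208, Etv5 -0.0916, Fam20c -0.0159 and Fgf1 -0.18. Fgf1 was also -0.0224 with upper-quartile factors, -0.0092 without the filter and -0.0037 with the stricter filter. Etv1 was 0.0022 with the replicate block. With wildtype 1 as the only control Fgf7 was -0.22, Etv5 -0.0293, Fgf1 -0.28 and Fgf13 0.12. The cause of these turns was not tested. The difference in Fgfr3 share was 3.28 percentage points without length scaling, 2.19 with Fgfr4 and Fgfrl1 added, and 2.52 to 5.56 with 1 library left out. One count equals 0.0437 to 0.0823 CPM, which limits what can be seen for Fgf9, Fgf23 and Fgf2.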
